A study of Mus musculus with 3 samples.

Results

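The genes described here are 10 members of the RGD integrin system, taken by gene symbol from the 32285 genes of the count tables: the alpha subunits Itga8, Itga5 and Itgav, the beta subunits Itgb1, Itgb3 and Itgb5, and the ligands Npnt, Egfl6, Fn1 and Vtn. They were measured by droplet single-cell RNA sequencing in bone-lining cells of wild type mice, in 3 libraries that the labels number as replicates 1 to 3. The cells were released from femora, tibias and iliac bones with collagenase and sorted as CD45-, Ter119-, CD31-, Alcam+ and Sca-1-. All 3 libraries were of this 1 kind, without a second genotype or a treatment, and strain and age are not given in the labels used here. The comparisons below were therefore made between cell lineages within the libraries. The labels do not say whether the libraries came from separate animals, so p-values measure only the spread between these libraries, which may be technical.

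Integrins are heterodimers of an alpha and a beta subunit that hold cells to the extracellular matrix. A subset of them recognises the tripeptide arginine-glycine-aspartate (RGD) in matrix proteins. Itga8 pairs with Itgb1 alone, and this receptor binds nephronectin (Npnt), best known from kidney development, where the pair is needed for the ureteric bud to grow into the mesenchyme. Itga5 also pairs only with Itgb1 and is the classical fibronectin receptor, whereas Itgav pairs with Itgb1, Itgb3, Itgb5 and further beta subunits and binds vitronectin, fibronectin and other ligands. In bone, the pair of Itgav and Itgb3 is known mainly from osteoclasts.

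The RGD tripeptide is what the 4 ligands have in common, and its codons are shown here because they are the feature through which the ligands are joined to the 6 subunits. The stretches below are coding sequence from the reference annotation (GENCODE M21 on GRCm38), not from the reads, 45 bases each on the coding strand from 5′ to 3′, with the 9 bases of the RGD codons in capitals. The Npnt codons lie at chr3:132904665-132904673 on the minus strand in exon 10 of 14. Those of Egfl6 lie at chrX:166538421-166538429 on the minus strand in exon 8 of 12. The longest coding transcript of Fn1 holds the tripeptide at 2 places, in exon 30 of 46 at chr1:71606746-71606754 and in exon 40 of 46 at chr1:71597443-71597451, both on the minus strand. The Vtn codons lie at chr11:78499706-78499714 on the plus strand in exon 3 of 8.
Npnt: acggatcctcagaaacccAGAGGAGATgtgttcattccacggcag
Egfl6: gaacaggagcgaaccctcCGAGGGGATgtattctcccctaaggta
Fn1, exon 30: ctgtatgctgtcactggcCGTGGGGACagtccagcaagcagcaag
Fn1, exon 40: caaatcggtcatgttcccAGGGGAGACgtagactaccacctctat
Vtn: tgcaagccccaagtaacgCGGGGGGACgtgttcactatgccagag
The codons after the tripeptide encode valine and phenylalanine in Npnt, Egfl6 and Vtn, serine and proline at exon 30 of Fn1, and valine and aspartate at exon 40. All 6 coding transcripts of Npnt, the only ones of Egfl6 and Vtn, and 7 of the 8 of Fn1 held the codons.

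The libraries held 20985636, 79905165 and 69890252 unique molecular identifiers (UMIs, each standing for 1 captured RNA molecule) in 20307 barcodes, of which 18232 cells were kept. A cell was gated to a lineage when it held at least 3 UMIs of 1 of 5 markers and of no other: Tnmd (tendon and ligament cells), Myh11 (mural cells of vessels), Cxcl12 (Cxcl12-abundant reticular cells), Bglap (osteoblasts) or Acan (chondrocytes). The gates held 169, 51, 821, 950 and 11493 cells, 13484 in all, and 3842 cells passed no gate. Averaged over the libraries, all 5 of 5 check markers of each lineage, which were not used for gating, were highest in the gate of that lineage. By library, Matn1 had 0 UMIs in the Acan gate of replicate 1, and Kcnj8, at 7.66 CPM in the Myh11 gate of replicate 1, was below its 9.89 CPM in the Cxcl12 gate of replicate 3. Col9a1, at 30.9 CPM in the Acan gate of replicate 1, was below the Cxcl12, Bglap and Tnmd gates of replicates 2 and 3 (50.9 to 135 CPM). Col2a1, at 1350 CPM there, was below the Bglap gate of replicates 2 and 3 (1807 and 2380 CPM). Within replicate 1 both were highest in the Acan gate. A gate of 252 cells with Ptprc, the gene of CD45, served as a background of leukocytes that the sort should have removed. Alcam RNA ranged from 11.5 to 128 CPM in the Tnmd, Cxcl12, Bglap and Acan gates and was higher, at 173, 170 and 212 CPM, in the leukocyte gate. No Alcam UMI was counted in the Myh11 gate of replicate 1, where a count of 0 allows up to 11.5 CPM. Replicate 1 stood apart: 625 of the 821 Cxcl12 gate cells and 49 of the 51 Myh11 gate cells came from it, its Acan gate held 414 cells against 4541 and 6538, and the chondrocyte check markers summed to 3829 CPM there but reached 37226 CPM in another library. Cell barcodes shared between libraries numbered 5, 9 and 28. Levels are given as CPM, the UMIs of a gene per 1000000 UMIs of all cells of a gate in a library, and because these are 3′ tag counts they are compared between gates and not between genes.

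Itga8 was concentrated in the Tnmd and Myh11 gates. In the Tnmd gate its level was 128, 118 and 61.7 CPM in replicates 1, 2 and 3 (103 ± 35.9 CPM, SD, n = 3). In the Myh11 gate of replicate 1, the only library with enough mural cells, it was 287 CPM (exact Poisson 95% interval 226 to 360). The level was 8.85, 12.5 and 0 CPM in the Cxcl12 gate, 6.26, 2.01 and 4.32 CPM in the Bglap gate and 3.19, 6.03 and 6.24 CPM in the Acan gate. The lowest Tnmd value was thus above every value of these 3 gates, which overlapped one another. In the leukocyte gate Itga8 lay at 0.456, 1.25 and 0.857 CPM, from 4 UMIs. Within replicate 1 the Myh11 gate stood above the Tnmd gate, at a ratio of 2.24 (1.55 to 3.24, counting error only).

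The difference of the Tnmd gate from the others was large against the spread between libraries. Itga8 was higher in the Tnmd than in the Cxcl12 gate by 3.74 ± 0.48 on the log2 scale (SE, edgeR quasi-likelihood test with library as block, adjusted p = 0.000143). Against the Bglap gate it was higher by 4.49 ± 0.57 (edgeR adjusted p = 0.000144), and against the Acan gate by 3.83 ± 0.42 (edgeR adjusted p = 2.33e-05). These 3 calls held under all 15 alternatives. Among the Cxcl12, Bglap and Acan gates no pair passed the test, and the smallest edgeR adjusted p of these 3 pairs was 0.424, with log2 differences between -0.67 and 0.76. The Tnmd gate thus came before these 3 gates, whose places relative to one another were not resolved. The place of the Myh11 gate above the Tnmd gate rests on 1 library and on counting error alone.

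Most Itga8 UMIs were nevertheless not in the cells where its level was highest. Of 1037 Itga8 UMIs in 747 cells, 118 lay in the Tnmd gate, 75 in the Myh11 gate and 652 in the Acan gate. In replicate 1 the Tnmd and Myh11 gates together with the Cxcl12 gate held most of the gated UMIs, with 22.9%, 32.5% and 14.3% of the library's Itga8 UMIs. The Acan gate held 4.33% in replicate 1, 76.8% in replicate 2 and 83.2% in replicate 3. A UMI of Itga8 was found in 49.2%, 44.8% and 29.2% of Tnmd gate cells and in 1.69%, 5.46% and 3.64% of Acan gate cells. With every cell thinned to 2000 UMIs the shares were 16.4%, 15.5% and 10.9% in the Tnmd gate, 29.8% in the Myh11 gate and 0.985%, 0.966% and 1.08% in the Acan gate. At this depth 0 of 86, 0 of 73 and 0 of 93 leukocytes held an Itga8 UMI. On the CPM scale the Acan gate interval of replicate 2, 5.41 to 6.70 CPM, lay above that of the leukocytes, 0.151 to 4.51 CPM, and the same held in replicate 3 but not in replicate 1.

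**Figure D1:**
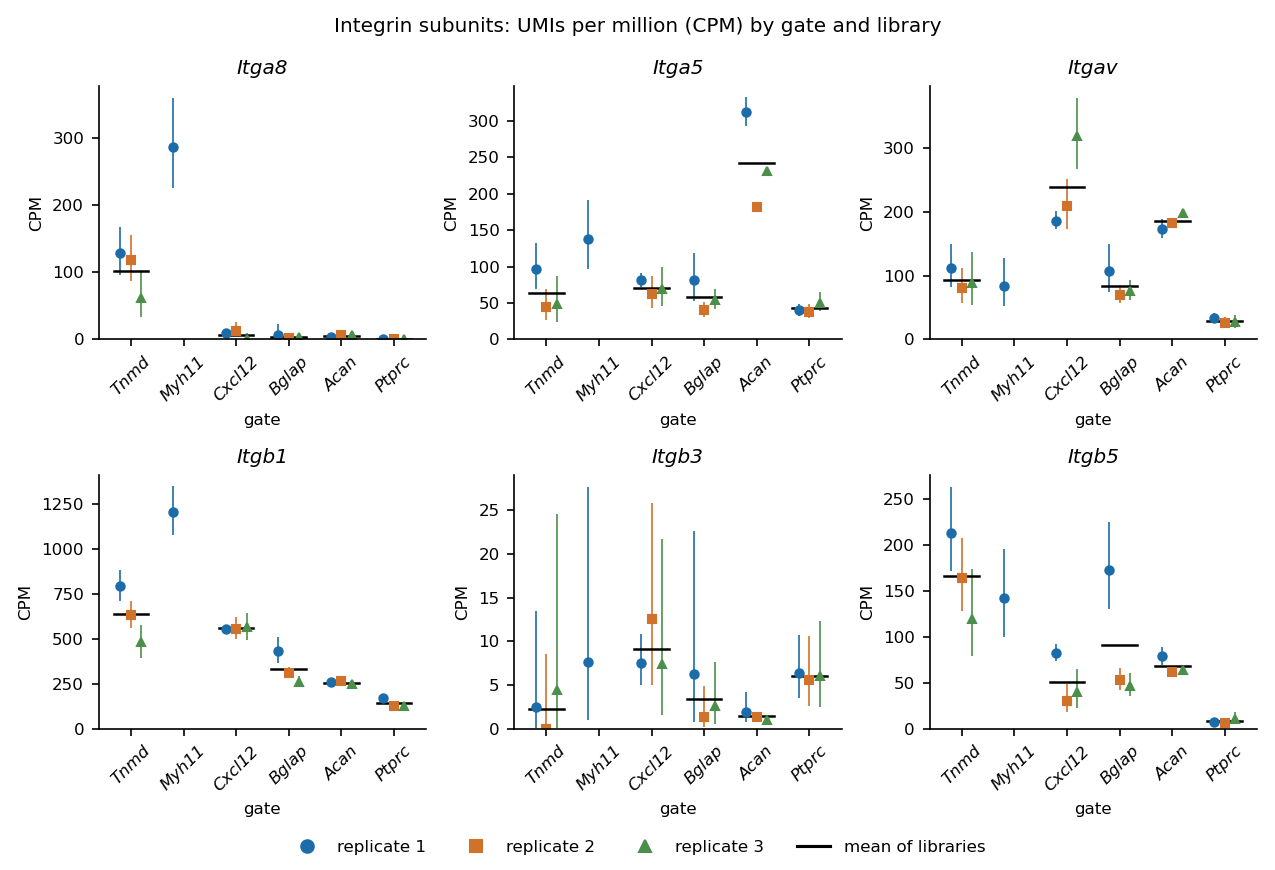
Levels of the 6 integrin subunits (y axis, CPM, a separate scale for each gene) in the 5 lineage gates and the leukocyte gate (x axis), with 1 point per library, exact Poisson 95% intervals as bars and a black line for the mean of the libraries. Itga8 stands out in the Tnmd and Myh11 gates, Itga5 in the Acan gate and Itgav in the Cxcl12 and Acan gates, and Itgb1 has its lowest lineage levels in the Acan gate.

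**Figure D2:**
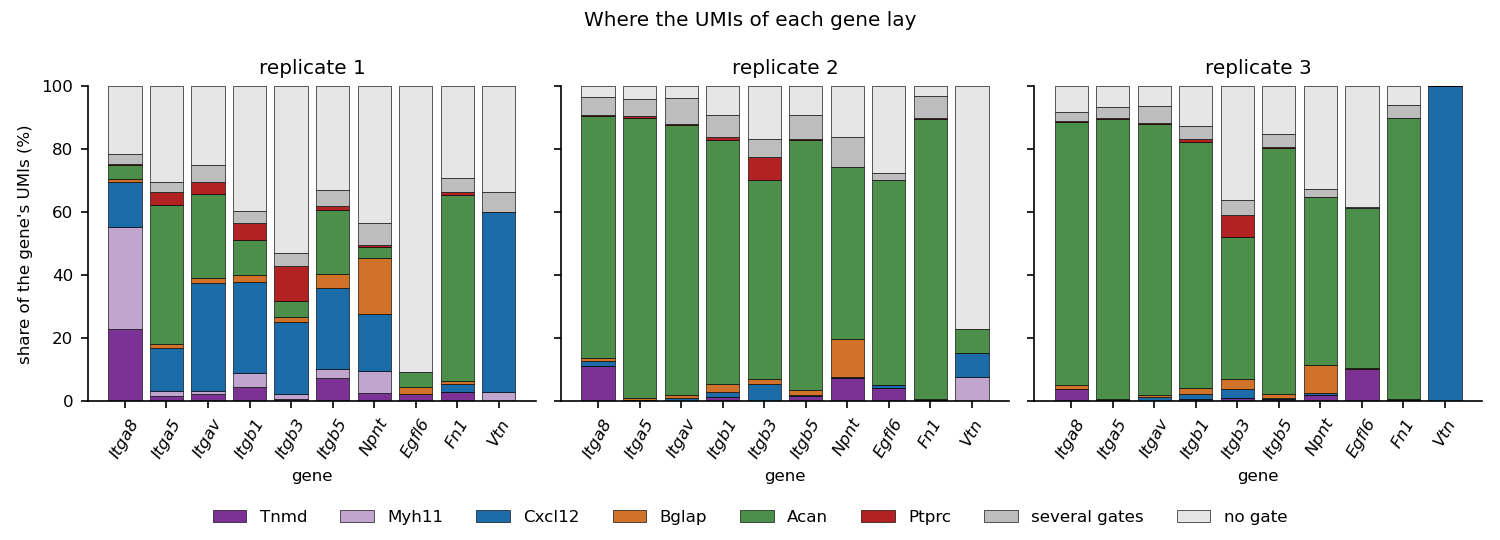
Share of each gene's UMIs (y axis, percent of the library's UMIs of that gene) that lay in each gate, for the 10 genes (x axis) in each replicate. The Acan gate held 4.33% of Itga8 UMIs in replicate 1 and 83.2% in replicate 3, while the single Vtn UMI of replicate 3 lay in the Cxcl12 gate.

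Itga5, the partner of Itgb1 in the fibronectin receptor, had another distribution and was highest in the Acan gate. It was at 312, 182 and 231 CPM in the Acan gate. In the Tnmd gate it was at 96.9, 43.9 and 48.5 CPM, in the Cxcl12 gate at 81.2, 62.7 and 69.2 CPM and in the Bglap gate at 81.4, 40.2 and 54.4 CPM. Every Acan gate value lay above every value of these 3 gates. In the leukocyte gate Itga5 was at 38.0 to 50.6 CPM, and some of the Tnmd and Bglap values lay within that range. Itga5 was lower in the Tnmd than in the Acan gate, with a log2 difference of -2.33 ± 0.22 (edgeR adjusted p = 7.6e-06). The Cxcl12 gate differed from the Acan gate by -2.20 ± 0.21 (edgeR adjusted p = 2.96e-06) and the Bglap gate by -2.13 ± 0.21 (edgeR adjusted p = 7.38e-06). All 3 calls held under all 15 alternatives. The Tnmd, Cxcl12 and Bglap gates were not told apart, with the 3 log2 differences between -0.20 and -0.07. The Myh11 gate of replicate 1 had 138 CPM (96.6 to 191), below the Acan gate of the same library at a ratio of 0.441 (0.307 to 0.615).

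Itgav, the promiscuous RGD alpha subunit, was high in the Cxcl12 and Acan gates. It lay at 186, 210 and 319 CPM in the Cxcl12 gate and at 174, 183 and 198 CPM in the Acan gate. The Tnmd gate had 111, 80.9 and 88.2 CPM, the Bglap gate 106, 69.7 and 76.0 CPM and the Myh11 gate 84.2 CPM in replicate 1. The 3 values of the Tnmd gate were below all 3 of the Cxcl12 gate and all 3 of the Acan gate. Endothelial markers were also present in the Cxcl12 gate, where Cdh5, Kdr and Emcn together reached 23.3, 66.3 and 163 CPM against at most 17.0 CPM in any other gate, and Pecam1 was at 189, 71.7 and 173 CPM. The UMIs of Cdh5, Kdr and Emcn lay in 13, 3 and 5 cells. Without those cells Itgav in the gate was at 181, 208 and 317 CPM. Pecam1 was still at 180, 43.4 and 100 CPM without them, so part of its UMIs lay in other cells of the gate. Itgav differed between the Tnmd and Cxcl12 gates by -1.26 ± 0.24 (edgeR adjusted p = 0.00213) and between the Tnmd and Acan gates by -1.36 ± 0.23 (edgeR adjusted p = 0.000756). The Cxcl12 gate was above the Bglap gate by 1.14 ± 0.23 (edgeR adjusted p = 0.00237), and the Bglap gate differed from the Acan gate by -1.24 ± 0.22 (edgeR adjusted p = 0.000759). Neither the Cxcl12 and Acan gates nor the Tnmd and Bglap gates were told apart. The calls against the Acan gate held under all 15 alternatives. Leaving out replicate 2 or replicate 3 ended the call between the Tnmd and Cxcl12 gates (edgeR adjusted p = 0.0683 and 0.0848) and that between the Cxcl12 and Bglap gates (edgeR adjusted p = 0.0686 and 0.117).

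Itgb1, the beta subunit that Itga8 and Itga5 require, was detected in every gate. In the Tnmd gate it was at 795, 633 and 481 CPM and in the Cxcl12 gate at 555, 557 and 566 CPM. In the Bglap gate it was at 432, 312 and 259 CPM, in the Acan gate at 258, 262 and 249 CPM, and in the Myh11 gate of replicate 1 at 1210 CPM. The Tnmd and Cxcl12 values overlapped, and both sets lay above all Acan values. Itgb1 was higher in the Tnmd than in the Acan gate by 0.90 ± 0.20 (edgeR adjusted p = 0.00444) and in the Cxcl12 than in the Acan gate by 0.70 ± 0.20 (edgeR adjusted p = 0.0123). The difference between the Tnmd and Bglap gates was 0.62 ± 0.20 (edgeR adjusted p = 0.0479), and this call stood in only 8 of 15 alternatives. It was lost without the library block (edgeR adjusted p = 0.0717) and without replicate 2 or without replicate 3 (edgeR adjusted p = 0.331 and 0.272). So were the calls against the Acan gate, for the Tnmd gate (edgeR adjusted p = 0.122 and 0.0543) and for the Cxcl12 gate (edgeR adjusted p = 0.153 and 0.165), while without replicate 1 Itgb1 was also called higher in the Cxcl12 than in the Bglap gate, by 0.45, and in the Bglap than in the Acan gate, by 0.31 (edgeR adjusted p = 0.00654 and 0.0191). In all 3 libraries, though, Itgb1 CPM was higher in the Tnmd than in the Bglap and Acan gates.

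Itgb3, the beta subunit of the vitronectin receptor, was scarce, with 347 UMIs in all, and did not pass the filter on low counts. It was at 7.51, 12.5 and 7.42 CPM in the Cxcl12 gate, against 5.61 to 6.39 CPM in the leukocyte gate, and at 1.91, 1.37 and 0.942 CPM in the Acan gate. The Cxcl12 and Acan values did not overlap, and the ratio of their summed levels was 6.78 (4.59 to 9.80, counting error only). With no filter on low counts edgeR called Itgb3 higher in the Cxcl12 than in the Acan gate, by 2.19 ± 0.67 (adjusted p = 0.00699), and in no other of the 6 comparisons. The Tnmd gate held 2 Itgb3 UMIs and the Bglap gate 7. Itgav and Itgb3 were found together in 2.24%, 4.60% and 1.83% of Cxcl12 gate cells and in 0.966%, 1.15% and 0.413% of Acan gate cells.

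Itgb5, which pairs only with Itgav, was high in the Tnmd gate at 213, 164 and 119 CPM. It was at 172, 52.9 and 46.6 CPM in the Bglap gate, at 82.3, 30.5 and 39.6 CPM in the Cxcl12 gate, at 78.5, 61.5 and 64.2 CPM in the Acan gate and at 142 CPM in the Myh11 gate of replicate 1. The Tnmd values lay above all Cxcl12 and Acan values but overlapped the Bglap gate through its replicate 1. Itgb5 was higher in the Tnmd than in the Cxcl12 gate by 1.78 ± 0.27 (edgeR adjusted p = 0.000495), in 15 of 15 alternatives, and than in the Acan gate by 0.85 ± 0.25 (edgeR adjusted p = 0.0192), in 11 of 15. The call against the Acan gate was lost without replicate 2 or without replicate 3 (edgeR adjusted p = 0.228 and 0.0795). The difference from the Bglap gate, 0.79 ± 0.26, did not pass the test (edgeR adjusted p = 0.0513), but was 1.05 and called without replicate 1 (edgeR adjusted p = 0.00106). Itgb5 was lower in the Cxcl12 than in the Bglap gate, a log2 difference of -0.996 ± 0.27 (edgeR adjusted p = 0.0162), and than in the Acan gate, -0.93 ± 0.26 (edgeR adjusted p = 0.00989). Without replicate 2 or without replicate 3, neither the former (edgeR adjusted p = 0.152 and 0.0839) nor the latter (edgeR adjusted p = 0.128 and 0.104) was called, and in replicate 1 the Cxcl12 gate was not below the Acan gate. Without the library block 3 Itgb5 calls were lost, that of the Tnmd against the Acan gate (edgeR adjusted p = 0.0773) and those of the Cxcl12 against the Bglap and Acan gates (edgeR adjusted p = 0.114 and 0.110).

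Npnt encodes nephronectin, the RGD ligand that Itga8 with Itgb1 binds most strongly. It was at 81.4, 28.2 and 27.6 CPM in the Bglap gate, at 9.69, 60.1 and 30.9 CPM in the Tnmd gate and at 38.3 CPM in the Myh11 gate of replicate 1. The Cxcl12 gate had 6.97, 1.79 and 4.94 CPM, the Acan gate 1.60, 3.33 and 3.96 CPM and the leukocyte gate 1 UMI. Both the Bglap and the Tnmd values lay above all Cxcl12 and Acan values, and they overlapped each other. The Tnmd values rested on 4, 26 and 7 UMIs in 2, 9 and 4 cells. With 4 UMIs, the 9.69 CPM of replicate 1 was only weakly separated from the 6.97 CPM of the Cxcl12 gate. Npnt was higher in the Bglap than in the Acan gate by 3.54 ± 0.51 (edgeR adjusted p = 0.000152), and lower in the Cxcl12 than in the Bglap gate, a log2 difference of -3.13 ± 0.63 (edgeR adjusted p = 0.00252). Both calls held under all 15 alternatives. The Tnmd gate was above the Acan gate by 2.99 ± 0.59 (edgeR adjusted p = 0.00205) and above the Cxcl12 gate by 2.58 ± 0.70 (edgeR adjusted p = 0.0191). Without replicate 2 both were lost (2.12 and 1.47, edgeR adjusted p = 0.119 and 0.368), and without replicate 3 the difference from the Cxcl12 gate was lost too (edgeR adjusted p = 0.106). Of the osteoblast check markers, Ifitm5 had no UMI in the Tnmd gate of any library and Dmp1 had 2 in all, while the sum of all 5, most of it Col1a1, was 2053 to 8708 CPM there and 28271 to 102444 CPM in the Bglap gate.

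Egfl6, a ligand with epidermal growth factor repeats and an RGD site, was uneven between the libraries. Its Tnmd gate level was 2.42 CPM in replicate 1, 27.7 CPM in replicate 2 and 132 CPM in replicate 3. These rested on 1, 12 and 30 UMIs, and the 3 cells with the most Egfl6 held 83.3% of the UMIs in replicate 2 and 66.7% in replicate 3. The Acan gate had 0.638, 3.31 and 3.12 CPM, so that the groups overlapped, and the ratio of the summed levels, Tnmd over Acan, was 12.7 (9.05 to 17.5, counting error only). The Cxcl12 gate held 3 Egfl6 UMIs, the Bglap gate 2 and the Myh11 and leukocyte gates 0, and the gene did not pass the filter on low counts in the comparison of gates. With no such filter edgeR called Egfl6 higher in the Tnmd gate than in the Cxcl12, Bglap and Acan gates (adjusted p = 2.64e-07, 3.3e-09 and 8.44e-09), against the Acan gate by 3.64 ± 0.58. Egfl6 did pass the filter with a gate of at least 2 UMIs and without replicate 1, and was called in the same 3 comparisons there. With the gate of at least 2 UMIs it was also called lower in the Bglap than in the Acan gate, at -3.30 ± 1.18 (edgeR adjusted p = 0.0432). The cells that passed no gate held 39, 80 and 112 Egfl6 UMIs, at 4.16, 13.8 and 15.9 CPM.

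Fn1, fibronectin, was abundant in the Acan and Tnmd gates. It was at 4685, 4328 and 4070 CPM in the Acan gate and at 1798, 3352 and 2641 CPM in the Tnmd gate. The Bglap gate had 698, 600 and 877 CPM, the Cxcl12 gate 165, 391 and 277 CPM and the Myh11 gate 149 CPM in replicate 1. No 2 of the first 4 gates overlapped. In the leukocyte gate Fn1 was at 82.2, 180 and 211 CPM, and 29.1%, 75.3% and 55.9% of those cells held an Fn1 UMI at median depths of 23784, 21413 and 11531 UMIs. Of the Cxcl12 gate cells 11.7%, 57.5% and 51.4% held one at 5788, 6392 and 3772 UMIs, and after thinning the shares were 6.46%, 23.5% and 29.7% there and 10.5%, 26.0% and 22.6% in the leukocytes. The Cxcl12 gate shares were thus near the background. Counted per cell, Fn1 had 3.91, 2.37 and 1.97 UMIs in the Bglap gate and 0.984, 2.51 and 1.03 in the Cxcl12 gate, against 2.09, 3.96 and 2.65 in the leukocytes, 11.8 to 25.0 in the Tnmd gate and 29.7 to 54.4 in the Acan gate. The Bglap gate cells were shallower than the leukocytes, at medians of 5020, 2596 and 1647.5 UMIs, and after thinning 57.4%, 59.1% and 63.4% of the 54, 235 and 194 that were deep enough held Fn1. Per cell, only the Acan and Tnmd gates lay above the leukocytes in every library, and the part of free RNA in the CPM of the Bglap and Cxcl12 gates was not tested.

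All 6 differences of summed Fn1 counts between the gates passed the test, and those that involve the Bglap or Cxcl12 gate include any free RNA counted there. The Tnmd gate was above the Cxcl12 gate by 3.29 ± 0.31 (edgeR adjusted p = 1.19e-05) and above the Bglap gate by 1.48 ± 0.29 (edgeR adjusted p = 0.00287). It was below the Acan gate, with a log2 difference of -1.22 ± 0.28 (edgeR adjusted p = 0.0059). The Cxcl12 gate differed from the Bglap gate by -1.81 ± 0.29 and from the Acan gate by -4.51 ± 0.33, and the Bglap gate from the Acan gate by -2.70 ± 0.30, with edgeR adjusted p-values of 0.000579, 3.19e-07 and 2e-05. The difference between the Tnmd and Acan gates was not called without replicate 3 (edgeR adjusted p = 0.0619), nor under scaling to library totals, where it was -0.80 (edgeR adjusted p = 0.0623). The difference between the Tnmd and Bglap gates was lost without replicate 2 (edgeR adjusted p = 0.106) and with a gate of at least 2 UMIs. The chondrocyte check markers summed to 55.7 to 1036 CPM in the Tnmd gate, with Matn1 at 0 in every library, and their part in the Fn1 level of that gate was not tested.

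Vtn, vitronectin, was counted among the lineage gates mainly in the Cxcl12 gate of replicate 1. Of 112 UMIs in 75 cells, the Cxcl12 gate held 56, 1 and 1, at 15.0, 1.79 and 2.47 CPM. Without the cells that held Cdh5, Kdr or Emcn it was at 14.8, 1.89 and 0 CPM, so the single UMI of replicate 3 lay in such a cell. No Vtn UMI was counted in the Tnmd or Bglap gate, 1 was counted in the Acan gate and none in the leukocyte gate. Within replicate 1, and against a floor of 3 counts per gate and library, the Cxcl12 gate was at least 1.60-fold higher than the Bglap gate, at least 2.06-fold higher than the Tnmd gate and at least 15.7-fold higher than the Acan gate. In replicates 2 and 3 its levels lay under the floors of the Bglap gate (2.01 and 2.59 CPM) and of the Tnmd gate (6.93 and 13.2 CPM), so that without replicate 1 no difference from either gate was detectable at this depth. With no filter on low counts edgeR called Vtn higher in the Cxcl12 than in the Bglap and Acan gates (adjusted p = 0.0373 and 6.93e-06) but not than in the Tnmd gate (adjusted p = 0.0604). In the Myh11 gate of replicate 1, 1 cell held all 3 Vtn UMIs. A further 33, 10 and 0 UMIs lay in cells of no gate.

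**Figure D3:**
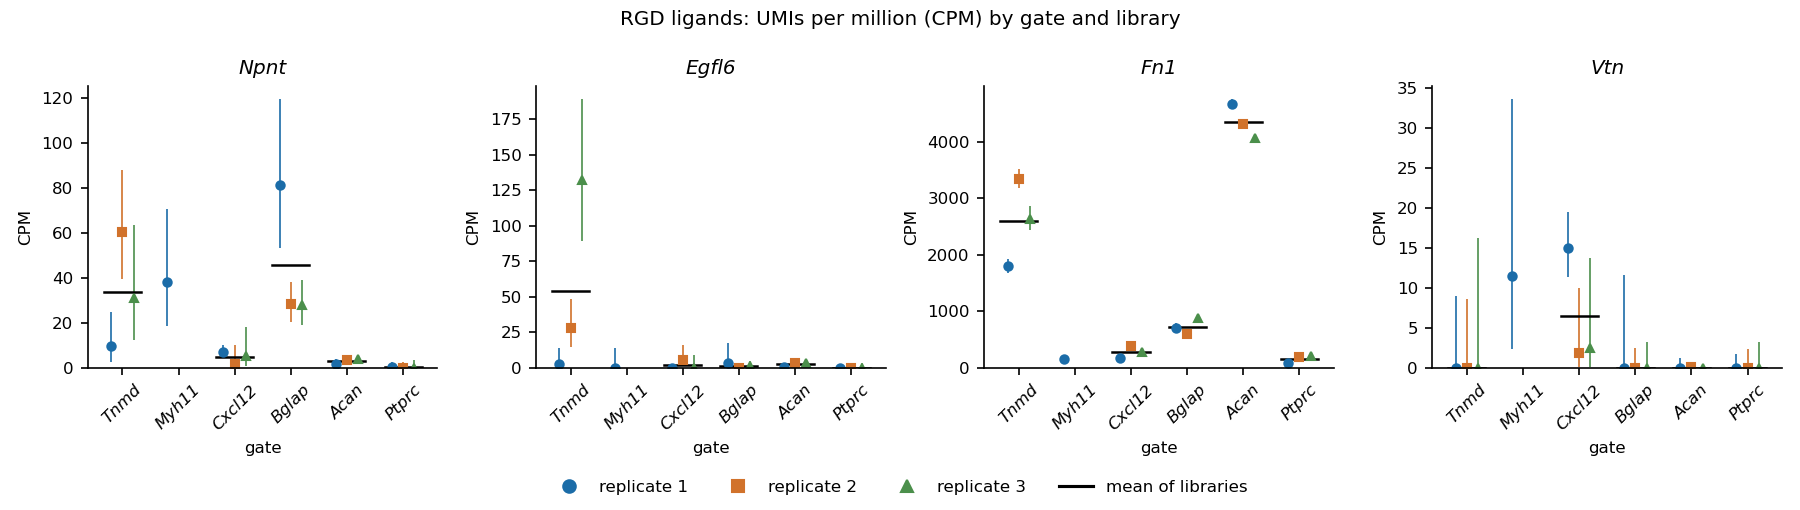
Levels of the 4 RGD ligands (y axis, CPM, a separate scale for each gene) by gate (x axis), with 1 point per library, exact Poisson 95% intervals as bars and a black line for the mean. Npnt is high in the Bglap gate and in the Tnmd gate of replicates 2 and 3. Egfl6 is highest in the Tnmd gate of replicate 3 and next in that of replicate 2, Fn1 is highest in the Acan and Tnmd gates and Vtn is seen in the Cxcl12 gate of replicate 1.

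Set beside all genes, the members were called more often in some comparisons and directions but not in all. In the comparison of 4 gates, 7 of the 10 members passed the filter on low counts, and Itgb3, Egfl6 and Vtn did not. Between the Tnmd and Cxcl12 gates, 4 of the 7 were higher in the Tnmd gate (Itga8, Itgb5, Npnt and Fn1) and 1 was lower (Itgav), where 9.39% of the 9734 genes tested were called higher and 11.1% lower. Between the Tnmd and Bglap gates, 3 were higher (Itga8, Itgb1 and Fn1) and 0 lower, against 9.28% and 9.72% of all genes. Between the Tnmd and Acan gates, 4 were higher (Itga8, Itgb1, Itgb5 and Npnt) and 3 lower (Itga5, Itgav and Fn1), against 14.4% and 15.6%. Between the Cxcl12 and Bglap gates, 1 was higher (Itgav) and 3 lower (Itgb5, Npnt and Fn1), against 12.7% and 12.1%. Between the Cxcl12 and Acan gates, 1 was higher (Itgb1) and 3 lower (Itga5, Itgb5 and Fn1), against 21.9% and 21.4%. Between the Bglap and Acan gates, 1 was higher (Npnt) and 3 lower (Itga5, Itgav and Fn1), against 19.0% and 20.0%. With 7 members, 1 or 0 calls in a direction lie near or below these background shares. The 7 members tested include only those with enough UMIs, and genes with more UMIs are called more readily.

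These log2 differences are on the TMM scale, which sets the bulk of genes equal between gates. With sums scaled to their totals alone, the median of all genes moved to 0.32 and 0.34 for the Tnmd gate against the Bglap and Acan gates and to 0.39 and 0.42 for the Cxcl12 gate against them. The calls of Itga8, Itga5, Itgav and Npnt were the same on both scales. On the totals scale Itgb5 was also called higher in the Tnmd than in the Bglap gate, by 1.09 ± 0.31 (edgeR adjusted p = 0.0255), and Itgb1 higher in the Cxcl12 than in the Bglap gate, by 0.78 ± 0.23 (edgeR adjusted p = 0.0241). The Itgb5 differences of the Cxcl12 gate from the Bglap and Acan gates fell short there, at -0.67 and -0.53, with edgeR adjusted p-values of 0.139 and 0.182. Higher calls made up 72.8% of calls between the Tnmd and Bglap gates on this scale against 48.8% under TMM, 73.2% against 48.0% for the Tnmd and Acan gates, 77.0% against 51.3% for the Cxcl12 and Bglap gates and 74.6% against 50.6% for the Cxcl12 and Acan gates.

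**Figure D4:**
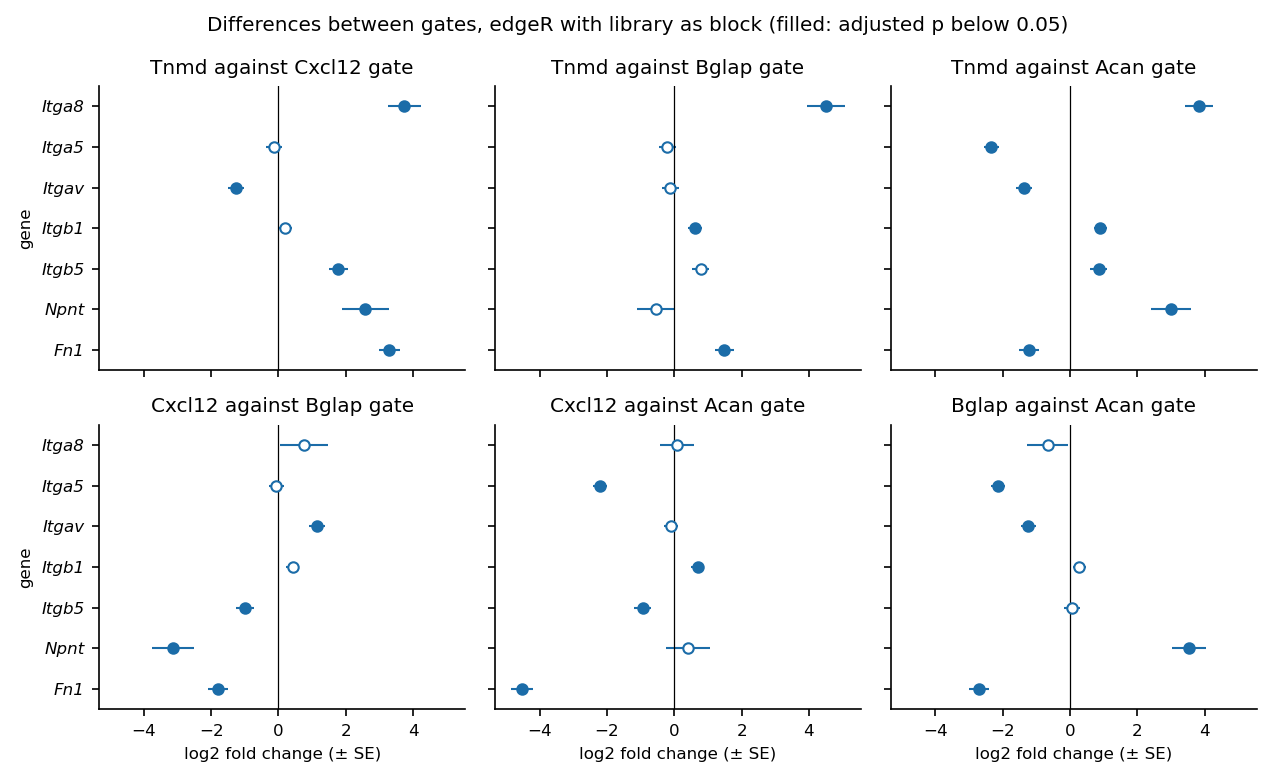
Log2 fold change ± SE (x axis) of the 7 members that passed the filter (y axis) for each of the 6 comparisons between gates, from edgeR with library as block. Filled points have an adjusted p below 0.05, among them Itga8 in the 3 comparisons with the Tnmd gate and Fn1 in all 6.

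Co-detection with Itga8 was then counted cell by cell. Of the 71 Tnmd gate cells with an Itga8 UMI, 69 also held Itgb1, being 31 of 31, 25 of 26 and 13 of 14 in the 3 libraries. Itgb1 was found in 31 of 32 such cells of the Myh11 gate, in 29 of 29 of the Cxcl12 gate, in 446 of 493 of the Acan gate and in 678 of 747 over all kept cells. The obligate partner was thus seen in most Itga8-detected cells of each of these gates. The cells without an Itga8 UMI held it nearly as often in the Tnmd gate, at a mean of 90.9% against 96.3% of the cells with one. After thinning to 2000 UMIs per cell the shares were 71.7% ± 11.0 and 68.8% ± 11.4 (SD, n = 3), a difference smaller than the spread between libraries. In the Acan gate of replicates 2 and 3, a mean of 81.1% of undetected and 90.5% of detected cells held Itgb1. Thinned, these shares were 40.6% ± 1.63 and 37.2% ± 0.720 (SD, n = 2). Over all kept cells they were 75.3% and 91.6%, and thinned 43.5% ± 4.01 and 51.6% ± 18.6 (SD, n = 3).

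The ligands were less even among the Itga8-detected cells. In the Tnmd gate 65 of the 71 held Itgb1 together with any of the 4 ligands, and 67 held Fn1. The Tnmd gate cells without an Itga8 UMI held Fn1 nearly as often, at a mean of 91.8% ± 9.59 against 95.5% ± 4.87 of those with one, and after thinning at 82.0% ± 10.0 against 83.8% ± 12.1 (SD, n = 3), so Fn1 did not set the Itga8-detected cells apart beyond the spread between libraries. In the Myh11 gate 14 of 32 held Itgb1 and a ligand, and in the Cxcl12 gate 11 of 29. Itgb1 together with Npnt or Egfl6 was found in 6 of 71 in the Tnmd gate, 6 of 32 in the Myh11 gate, 12 of 493 in the Acan gate and 46 of 747 in all. In the Tnmd gate Npnt was found in 6.02% ± 2.44 of Itga8-detected and 11.3% ± 9.61 of undetected cells (SD, n = 3). Egfl6 was found there in 8.61% ± 7.58 and 11.0% ± 11.0. In the Myh11 gate of replicate 1 the Npnt shares were 18.75% and 5.88%, and after thinning 6.25% and 6.67%. Another RGD alpha subunit, Itga5 or Itgav, was found in 578 of the 747 cells, in 42 of 71 in the Tnmd gate and in 421 of 493 in the Acan gate. After thinning, Itga5 was found in 21.9% of detected and 27.8% of undetected Acan gate cells (means, n = 2). For Itgav these shares were 23.1% and 28.2%. In the Tnmd gate they were 12.7% ± 9.19 and 12.6% ± 5.33 for Itga5 (SD, n = 3). For Itgav they were 25.0% ± 21.7 and 9.54% ± 5.70 there. No Itga8-detected cell of the Tnmd gate held Vtn.

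Within the Tnmd gate, cells with and without an Itga8 UMI were compared by summed counts in each library. Of 5 members tested (Itga5, Itgav, Itgb1, Itgb5 and Fn1), 0 were called, where 0.562% of 3380 genes tested were called in either direction. Itgb1 differed by 0.00 ± 0.19 on the log2 scale and Fn1 by 0.36 ± 0.14 (edgeR adjusted p = 0.564), with Fn1 CPM higher in the Itga8-detected cells in 3 of 3 libraries. By DESeq2, too, 0 of the 5 were called, and Fn1 alone had an unadjusted edgeR p, 0.0195, under the level of 0.05. The median depth was 7333, 7721.5 and 4178 UMIs in the detected cells and 5733, 6923.5 and 4761.5 in the undetected, so the detected cells were the deeper in replicates 1 and 2.

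Within the Acan gate the split could be made in replicates 2 and 3, since replicate 1 had 7 Itga8-detected cells. Of 8 members tested, 1 was called higher in the Itga8-detected cells (Fn1), where 6.78% of 16437 genes were, and 4 were called lower (Itga5, Itgb1, Itgb5 and Egfl6), where 6.67% were. Itga5 was at 124 and 167 CPM in detected and 187 and 235 CPM in undetected cells of replicates 2 and 3, a log2 difference of -0.66 ± 0.08 (edgeR adjusted p = 2.6e-09) that was called in all 14 alternatives. Itgb5 was at 39.7 and 38.7 CPM against 63.4 and 65.6 CPM, a difference of -0.82 ± 0.11 (edgeR adjusted p = 2.26e-08). Fn1 was at 5274 and 5518 CPM against 4247 and 3988 CPM, a difference of 0.28 ± 0.05 (edgeR adjusted p = 2.79e-05). Egfl6 held 2 cells among the 486 detected ones and differed by -3.68 ± 0.68 (edgeR adjusted p = 2.41e-05), and Itgb1 differed by -0.25 ± 0.08 (edgeR adjusted p = 0.0178).

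Depth differed strongly across this split, with medians of 17079.5 and 9918 UMIs in the detected and 11077 and 6739 in the undetected cells. With cells thinned to 2000 UMIs, the split was made anew from the thinned counts, in which a mean of 1.01% of Acan gate cells held an Itga8 UMI. Itga8-detected cells that lost their UMI by thinning were counted as undetected, so this fit differs in split as well as in depth. In it Itga5 was still called, whereas Fn1 moved to 0.00, Fn1, Itgb1, Itgb5 and Egfl6 were no longer called and Itgav was called lower, at -0.86. Of the 7 members tested in it, 0 were called higher and 2 lower, where 54 and 254 of 12094 genes were. The median log2 difference of all genes was -0.23 in this fit, against 0.00 in the unthinned fit. Egfl6 and Itgb1 were also not called by DESeq2, and Fn1 and Itgb1 not without the library block. With the split of the unthinned cells kept, Itgb5 was found after thinning in 8.45% ± 1.16 of the detected and 13.1% ± 0.376 of the undetected cells (SD, n = 2), and Fn1 in 96.3% ± 0.454 and 88.3% ± 0.438. In the unthinned cells, 15 further RGD ligands were all tested across this split. Of these, 1 was called higher (Edil3) and 7 lower in the Itga8-detected Acan gate cells, where 6.78% and 6.67% of all genes were. Fbn1, Mfge8 and Tgfb1 were lower by log2 differences of -1.08, -0.98 and -0.39, and the other 4 are known from mineralised matrix, with log2 differences of -2.93 ± 0.06 for Ibsp, -2.59 ± 0.11 for Spp1, -2.53 ± 0.45 for Dmp1 and -5.64 ± 0.68 for Mepe (edgeR adjusted p = 5.81e-48, 6.91e-31, 1.25e-05 and 5.3e-10). For the members, the part of depth in the differences was not tested beyond this thinning. For the further ligands, whose values are all from unthinned cells, it was not tested.

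**Figure D5:**
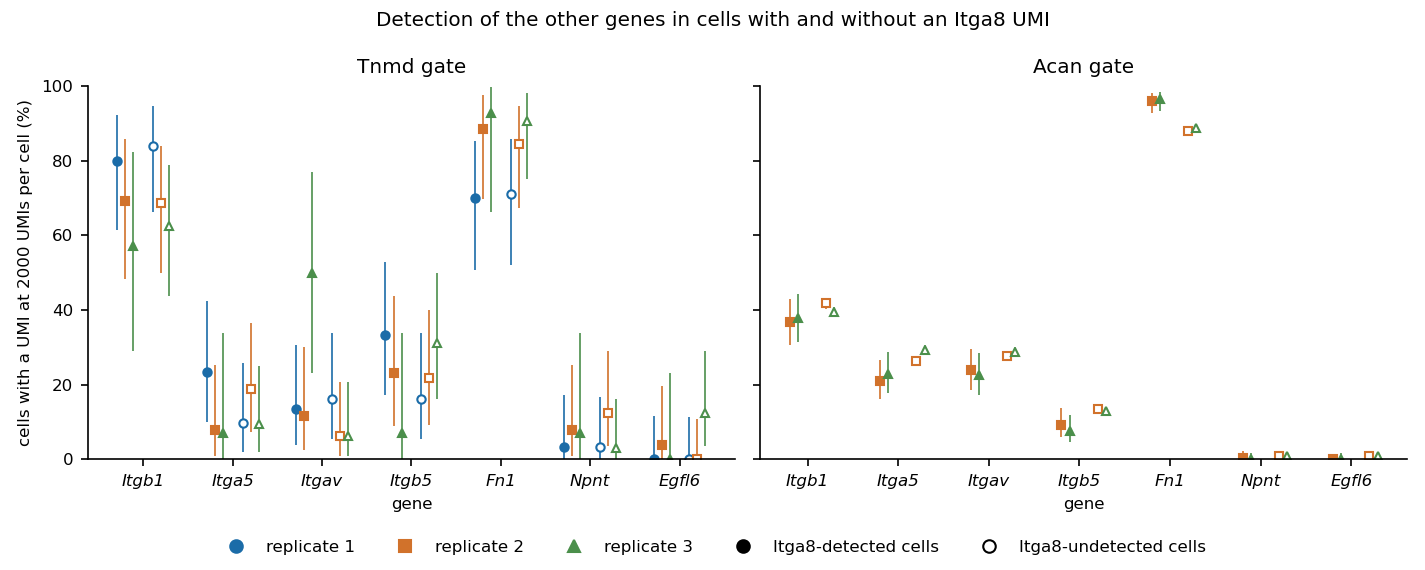
Share of cells with a UMI of each gene after thinning to 2000 UMIs per cell (y axis, percent) in Itga8-detected (filled) and Itga8-undetected cells (open) of the Tnmd and Acan gates, for 7 genes (x axis), with 1 point per library and exact binomial 95% intervals. In the Tnmd gate the filled and open points of Itgb1 lie together, and in the Acan gate Fn1 is at 96.3% in detected and 88.3% in undetected cells on average.

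Beyond the members, 5 lists of related genes were followed. Of 3 further RGD-binding subunits 1 was tested, Itgb8, a partner of Itgav, which was higher in the Tnmd than in the Cxcl12 gate by 2.60 ± 0.65 and than in the Acan gate by 2.81 ± 0.56 (edgeR adjusted p = 0.0124 and 0.00207). Of 15 further RGD ligands 13 were tested, and 7, 8 and 5 were higher and 3, 4 and 3 lower in the Tnmd gate than in the Cxcl12, Bglap and Acan gates, where 9.39%, 9.28% and 14.4% of all genes were higher and 11.1%, 9.72% and 15.6% lower. The median log2 differences of these ligands were 1.16, 1.15 and 0.22 against -0.04, -0.02 and -0.04 over all genes. The microfibril proteins led the higher ones, Mfap4 by 9.92, 5.60 and 9.99 and Mfap5 by 4.95, 7.06 and 9.15, and Ibsp, bone sialoprotein, was the furthest below the Cxcl12 and Acan gates, at -5.02 and -5.60. In the reference, Mfap2 and Tnc of this list held no RGD codons in any coding transcript.

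The Fraser complex, basement membrane proteins that bind nephronectin and their scaffold Grip1, had 2 of 4 genes tested. Frem1 was higher in the Tnmd gate than in the Cxcl12, Bglap and Acan gates by 4.80, 6.61 and 5.45, and Fras1 was lower in the Tnmd than in the Acan gate, with a difference of -2.56 (edgeR adjusted p = 0.0148). Of 7 other Itgb1 partners tested out of 9, 1, 2 and 3 were higher in the Tnmd gate than in the Cxcl12, Bglap and Acan gates and 0, 1 and 1 lower. With 7 genes, 1 call in a direction is near those background shares. Itga10, a collagen receptor subunit, was higher in the Tnmd than in the Cxcl12 gate by 2.63 but lower than in the Bglap gate, at -1.54, and Itga11, another one, above the Acan gate by 2.54. Of 13 intracellular adhesion proteins, all tested, 0, 2 and 0 were higher and 1, 0 and 5 lower in the Tnmd gate, and all but the 2 and the 5 lie below the same background shares. Talin 2 (Tln2) was below the Cxcl12 gate, at -3.44, and vinculin (Vcl) above the Bglap gate, by 1.23.

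The genes whose levels ran most like those of Itga8 over the 16 sums of gate and library, Myh11 and leukocyte gates included, were Ntf3 (Pearson r = 0.979 of log2(CPM + 10), among 19085 genes), AI838599 (0.963), Dgkb (0.962), Epha7 (0.951) and Pkia (0.948). Ntf3, a neurotrophin, averaged 27.1 CPM in the Tnmd gate, 107 CPM in the Myh11 gate and 1.77 CPM in the Acan gate. The sums share libraries and the Myh11 gate is a single sum, so these values only describe likeness.

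The 10 genes lie apart in the genome, by the reference annotation on GRCm38, and all are protein coding. The alpha subunits are at chr2:12106632-12301922 (Itga8, minus strand), chr15:103344286-103366763 (Itga5, minus) and chr2:83724397-83806916 (Itgav, plus). The beta subunits are at chr8:128685654-128733200 (Itgb1), chr11:104608000-104670476 (Itgb3) and chr16:33829665-33949338 (Itgb5), all on the plus strand. The ligands are at chr3:132881745-132950291 (Npnt, minus), chrX:166523007-166585720 (Egfl6, minus), chr1:71585520-71653200 (Fn1, minus) and chr11:78499091-78502324 (Vtn, plus).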

How the data were processed

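Per the labels, the authors made the files with Cell Ranger 7.1.0 on mm10 (submitters' processing notes), and the deposited values are raw UMI counts per gene and cell barcode from a 3′ droplet kit, with no normalization. The 3 libraries held 2606, 7172 and 10529 barcodes. Cells under 200 detected genes or over 20% mitochondrial UMIs were dropped. Doublets were scored with Scrublet in Scanpy 1.11.5. Its automatic threshold marked 11, 1 and 4 cells, so the top-scoring 0.8% per 1000 cells were removed instead (51, 362 and 837 cells), and 2476, 6363 and 9393 cells remained, with median depths of 5614, 9704 and 5814 UMIs. Gates took cells with at least 3 UMIs of 1 marker alone (Ptprc at least 2), and cells of several gates (654) were set aside. Counts of at least 10 cells were summed per gate and library and tested with edgeR 4.0.16 in R 4.3.3 (quasi-likelihood, TMM, filter on low counts, library as block, Benjamini-Hochberg adjustment over all genes tested, call at 0.05). The code was tested on simulated data. The library number is a block because all gates of a library come from the same cell suspension. DESeq2 1.42.0, other scalings, gates and filters were alternatives. Intervals are exact Poisson or Clopper-Pearson at 95% and cover counting error only, as does the floor of 3 counts. For shares at 1 depth, cells were thinned to 2000 UMIs and shallower cells left out. All 10 members were named, and 5 genes by likeness to Itga8. The members, lists and gates were chosen with earlier results of these data known.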

Additional observations from a re-analysis of the deposited data

How the results depend on the processing

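No called difference reversed. For the numbers of genes called between gates, leaving out a library gave 871 to 2567 for the Tnmd against the Cxcl12 gate (1990 with all 3 libraries), 506 to 3127 for the Tnmd against the Bglap gate (1849), 1238 to 3785 for the Tnmd against the Acan gate (2913), 973 to 3626 for the Cxcl12 against the Bglap gate (2416), 2581 to 4707 for the Cxcl12 against the Acan gate (4222) and 1635 to 5555 for the Bglap against the Acan gate (3790), lowest without replicate 2 and highest without replicate 1 in each. In the Tnmd gate, Itga8-detected against undetected cells gave 19 genes with the library block, 3 with a gate of at least 5 UMIs, 6 with at least 3 UMIs and 1000 CPM, 31 with cells of several gates put in 1, 5 by DESeq2 with and without its own filter, 33 without a low-count filter and 16 to 43 with a library left out. Without the replicate block edgeR called 0 of these genes, with 83 at an unadjusted p under 0.05, and the pairing of detected and undetected cells by library is fixed by the design. In the Acan gate the split gave 2211 genes, 830 by DESeq2, 788 without its own filter, 1139 without the replicate block and 308 after thinning. The thinned fit split the cells anew by their thinned Itga8 counts. Higher calls made up 50.4% of the 2211, 69.0% under scaling to totals and 17.5% after thinning. The cause of these changes was not tested. Scaling to library totals and leaving out cells with an endothelial UMI were chosen after seeing the data. Of the members' differences, 756 of the alternatives' values kept their call, 11 gained and 48 lost one. Between gates, leaving out the block ended 1 call of Itgb1 (Tnmd against Bglap gate) and 3 of Itgb5 (Tnmd against Acan gate, Cxcl12 against Bglap and Acan gates) and no other call of a member. Leaving a library out of the Acan split leaves 1 pair and no test, and the thinned Tnmd split had too few detected cells to be fitted. Depth limits Itgb3, Egfl6 and Vtn, which failed the filter on low counts and were tested between gates only under alternatives, and the Myh11 gate rests on 1 library.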
